A study of Capra hircus with 20 samples.

Results

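The genes described here are the fibroblast growth factor (FGF) ligands FGF1, FGF2, FGF7, FGF10, FGF11 and FGF18 and the FGF receptors FGFR1, FGFR2, FGFR3 and FGFR4. They were taken by gene symbol from the deposited mRNA table, in which 9 of the 10 had rows, 37 transcripts in all, out of 43766 transcripts and 20587 gene symbols. FGFR3 was not analysed here. The gene identifiers in the table were 102188850 for FGF1, 102186892 for FGF2, 102178454 for FGF7, 102174339 for FGF10, 102186718 for FGF11 and 102178396 for FGF18. For the receptors they were 102180282 (FGFR1), 102170938 (FGFR2) and 102183685 (FGFR4).

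RNA was sequenced from goat (Capra hircus) cells in 4 groups of 5 libraries. Intramuscular preadipocytes (IMPA) and the intramuscular adipocytes obtained from them (IMA) came from the longissimus dorsi muscle, and subcutaneous preadipocytes (SPA) and adipocytes (SA) came from subcutaneous fat. The donors were 5 male Jianzhou Daer goats, 7 days old and with no treatment stated. The cells were released with collagenase, passaged in culture and harvested at day 0 (IMPA, SPA) or after 3 days with oleic acid in the medium (IMA, SA). All 4 groups were therefore cultured primary cells, with no sort on a surface marker stated, and the goat behind each library number was not stated. The question was how the genes differ before and after differentiation and between the 2 depots. Differentiation here means the 3 days with oleic acid, and the names of the groups are the study's. The p-values below measure the spread between these libraries.

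FGFs are signalling proteins that bind receptor tyrosine kinases together with heparan sulfate, and the activated receptor signals mainly through RAS and ERK, PI3K and AKT, and phospholipase C gamma. In adipose tissue, FGF10 is needed for fat depots to form, FGF1 and FGF2 act on preadipocyte growth and differentiation, and FGFR1 is the main receptor of preadipocytes. FGF7 and FGF10 are made by mesenchymal cells and act mostly through a splice form of FGFR2 that is typical of epithelium. FGF11 differs from the rest: it belongs to the intracellular FGFs, which are not secreted. FGFR4 is best known from liver and from muscle progenitors.

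Values are FPKM (fragments scaled for the length of the transcript and the mapped fragments of the library), with the transcripts of a gene summed. They are scaled per length, so levels can be set beside each other between genes. Differences were tested with limma on log2(FPKM + 1) over the 11432 genes with a mean of at least 1 FPKM in the 20 libraries. On this scale the change of a low gene is understated. Adjustment followed Benjamini and Hochberg over all 11432 genes, and a gene was called at an adjusted p under 0.05. Of the 9 genes with rows, 8 were tested, and FGF1 was too low. FGFR4 passed this filter only through the intramuscular groups and FGF18 only through the subcutaneous groups, where they were high, so that a difference between the depots was built into their testing.

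The summed FPKM of the mRNA table ranged from 373889 to 413880 per library, and 15126 to 16961 genes were above 0. The depth in fragments is unknown, because the table holds no counts. By the study's alignment statistics, the share of reads mapped to the genome was higher in every IMPA library than in any other library. It was also higher in every SPA and every IMA library than in any SA library. The mapped share and the group therefore cannot be told apart in any of the 4 pairwise comparisons. The values of the members in comparisons that use IMPA are also given below with the mapped share as a covariate. The 16 skeletal muscle markers with rows summed to between 3517 and 4023 FPKM in IMPA and between 12670 and 13460 in IMA, against 7.20 to 25.0 in SPA and 7.62 to 10.0 in SA. The defining adipocyte markers ADIPOQ and PLIN1 had means below 1 FPKM in all 4 groups. The 11 adipocyte markers with rows summed to between 20.9 and 22.5 FPKM in IMPA and 19.2 and 21.3 in IMA. In SPA they summed to between 17.5 and 21.0, and in SA to between 14.1 and 18.4. Of the 4 tested, CD36 rose on the log2 scale by 2.24 in IMA against IMPA and by 0.84 in SA against SPA. CEBPA fell by 0.68 and 0.31 and SCD by 0.32 and 1.01, and CIDEC was called in neither. With the covariate, 1 of the 4 was called in IMA against IMPA, as higher. The 10 proliferation markers summed to between 157 and 191 FPKM in IMPA, 135 and 163 in IMA, 68.3 and 78.4 in SPA and 312 and 351 in SA. In such bulk RNA, fewer cells of a type and less RNA per cell cannot be told apart.

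Among the ligands, FGF7 was by far the most abundant. It made up 79.1% ± 4.32 (SD, n = 5) of the summed ligand FPKM in IMPA, 77.9% ± 2.23 in IMA, 89.9% ± 0.433 in SPA and 81.2% ± 1.80 in SA. The ligands together summed to 145.9 ± 17.5 FPKM in IMPA and 142 ± 10.5 in IMA, and to 306.9 ± 14.7 in SPA and 221 ± 13.1 in SA. The libraries of both subcutaneous groups were thus all above the intramuscular ones. The remaining share differed in kind between the depots. FGF11 was the next ligand in the intramuscular groups, with 11.6% ± 3.49 in IMPA and 12.1% ± 2.27 in IMA. In the subcutaneous groups FGF2 was next, with 4.51% ± 0.242 in SPA and 13.2% ± 1.3 in SA.

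**Figure D1:**
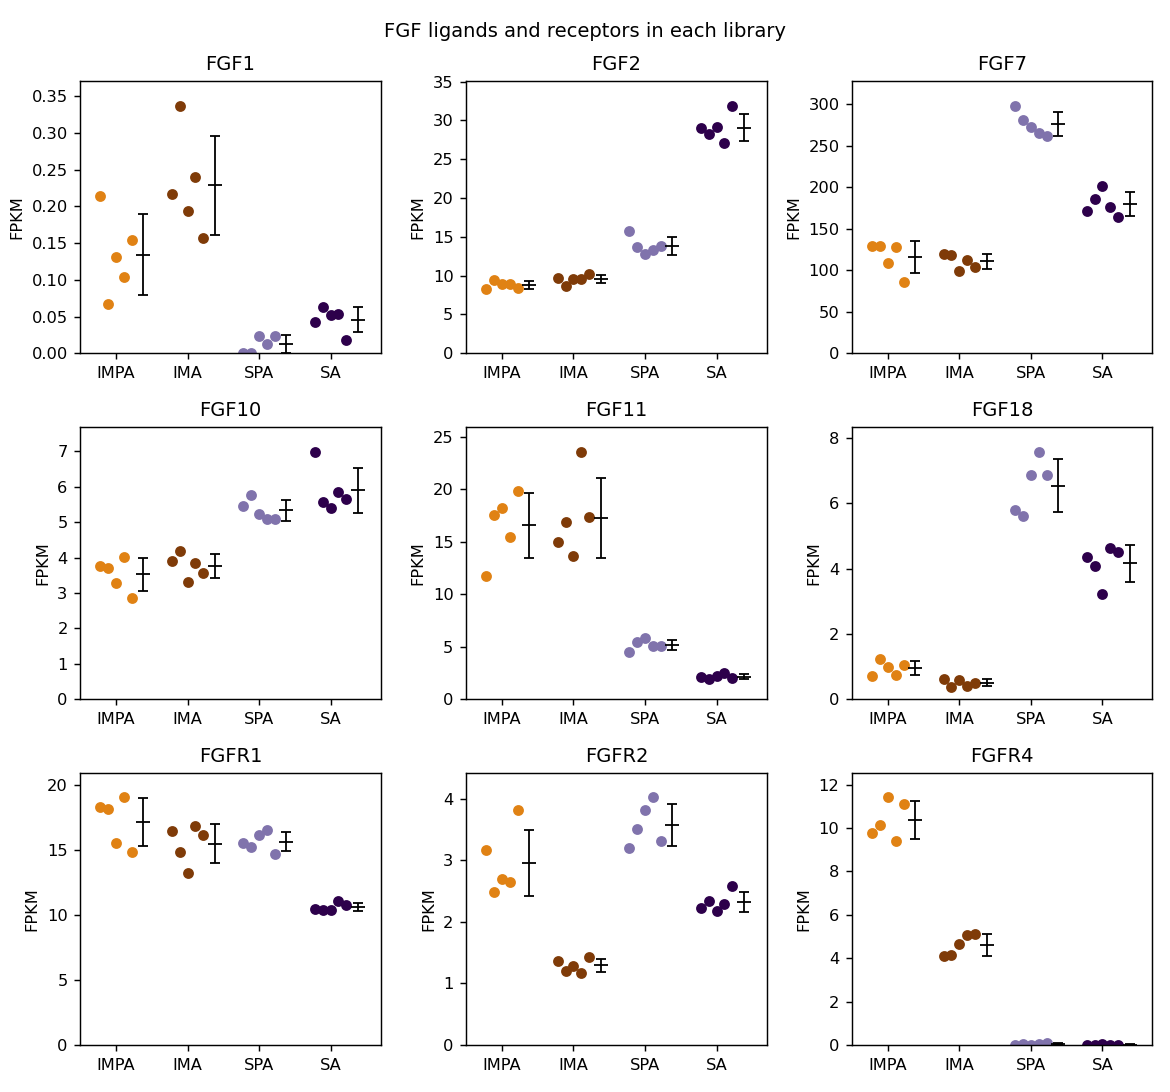
FPKM (linear axes from 0) of the 9 genes with rows, in 4 groups of 5 libraries. Each point is a library, and the black mark beside each group is its mean with the SD. FGFR4 is high only in IMPA and IMA in this plot, FGF2 is highest in SA and FGF18 is high in SPA and SA.

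FGF2, the basic FGF that drives growth of many mesenchymal cells, doubled with differentiation in the subcutaneous cells. It was at 15.7, 13.6, 12.7, 13.3 and 13.8 FPKM in SPA libraries 1 to 5 and at 29.0, 28.3, 29.1, 27.1 and 31.9 in SA libraries 1 to 5. All SA libraries lay above all SPA libraries. The intramuscular values were 8.30, 9.47, 8.98, 8.92 and 8.41 FPKM in IMPA and 9.71, 8.73, 9.53, 9.54 and 10.2 in IMA. These overlapped with each other and lay below every subcutaneous library. The mean in SA was 2.10 times that in SPA, a log2 difference of 1.02 ± 0.06 (SE) with a limma adjusted p of 2.1e-08. IMA minus IMPA was 0.10 ± 0.05 with a 95% interval from -0.01 to 0.21 and a limma adjusted p of 0.092, and -0.04 with the covariate (limma adjusted p = 0.93). The proliferation markers were higher in SA than in SPA as well, and their part in the FGF2 difference was not tested.

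FGF7, also called keratinocyte growth factor, moved the other way in the subcutaneous cells. Its level was 298, 281, 273, 266 and 261 FPKM in SPA and 172, 185, 202, 176 and 164 FPKM in SA. The groups did not overlap, and the log2 difference was -0.62 ± 0.06 (limma adjusted p = 1.6e-06). In IMPA it was at 129, 129, 108, 128 and 85.6 FPKM and in IMA at 120, 119, 99.3, 112 and 104. The IMA libraries lay within the wider range of IMPA, with a difference of -0.05 and a 95% interval from -0.28 to 0.18 (limma adjusted p = 0.69). The difference was -0.93 with the mapped share as a covariate and was not called in that fit either (limma adjusted p = 0.067). The order of the means was SPA, SA, then IMPA and IMA, whose libraries overlapped.

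FGF10, the near relative of FGF7, was lower and steadier. It was at 3.75, 3.71, 3.27, 4.01 and 2.86 FPKM in IMPA, 3.89, 4.18, 3.29, 3.84 and 3.57 in IMA, 5.44, 5.78, 5.23, 5.10 and 5.10 in SPA, and 6.99, 5.56, 5.41, 5.86 and 5.66 in SA. Every subcutaneous library was above every intramuscular one, and the stages overlapped in each depot. Neither stage comparison was called: the log2 difference was 0.08 with a 95% interval from -0.09 to 0.24 for IMA minus IMPA (limma adjusted p = 0.41), and 0.12 with an interval from -0.02 to 0.26 for SA minus SPA (limma adjusted p = 0.13). The intramuscular value was -0.52 with the covariate (limma adjusted p = 0.16).

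FGF11, the intracellular member, was higher in the intramuscular depot. Its values were 11.7, 17.6, 18.2, 15.5 and 19.9 FPKM in IMPA and 15.0, 16.9, 13.7, 23.6 and 17.4 in IMA. In SPA they were 4.48, 5.45, 5.83, 5.04 and 5.09 FPKM, and in SA 2.07, 1.92, 2.18, 2.50 and 2.02. The intramuscular groups overlapped and were scattered, while every SA library lay below every SPA library. The fall in the subcutaneous cells was -0.98 ± 0.07 on the log2 scale (limma adjusted p = 1.7e-07). The intramuscular difference was 0.06 with a 95% interval from -0.27 to 0.38 (limma adjusted p = 0.76), and -0.14 with the covariate (limma adjusted p = 0.91).

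FGF18, a ligand known from cartilage and bone, was high in the subcutaneous groups and near or below 1 FPKM in the intramuscular ones. It was at 0.72, 1.22, 1.00, 0.73 and 1.04 FPKM in IMPA and at 0.62, 0.38, 0.60, 0.41 and 0.50 in IMA. In the subcutaneous libraries it was at 5.80, 5.62, 6.88, 7.59 and 6.87 FPKM (SPA) and 4.37, 4.08, 3.22, 4.65 and 4.52 FPKM (SA). Libraries of different groups did not overlap, in the order SPA, SA, IMPA, IMA. FGF18 fell with differentiation in both cell types: by 0.37 ± 0.08 in the intramuscular cells (limma adjusted p = 0.0019) and by 0.55 ± 0.09 in the subcutaneous cells (limma adjusted p = 0.00037). The ratios of means, IMA to IMPA and SA to SPA, were 0.53 and 0.64, so which fall was larger depends on the scale. The intramuscular call was lost once the mapped share entered as a covariate (-0.38, limma adjusted p = 0.48).

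FGF1, the acidic FGF that binds all FGF receptors, was near the lower limit of the table. It was at 0.21, 0.07, 0.13, 0.10 and 0.15 FPKM in IMPA and 0.22, 0.34, 0.19, 0.24 and 0.16 in IMA. In SPA it was listed at 0 in libraries 1 and 2 and reached at most 0.0241 FPKM, and in SA it ranged from 0.0183 to 0.0627. The 4 comparisons of FGF1 were tested by exact two-sided permutation over all divisions of the 10 libraries, unadjusted, for which the smallest p is 0.00794. Both depot comparisons reached it (exact permutation p = 0.00794). The stage comparisons gave exact permutation p = 0.0317 for IMA against IMPA and 0.0238 for SA against SPA. A transcript row above 0 in 2 of the 20 libraries, both of IMA, held 39.7% of the FGF1 FPKM in IMA. The main FGF1 row had means of 0.134 FPKM in IMPA and 0.138 in IMA. How FPKM was shared between these rows was not tested. Without IMA 2, where the second row was highest, the summed FGF1 difference was 0.0674 FPKM (exact permutation p = 0.0635). The p for IMA against IMPA was above 0.05 in 7 of the 10 tests that left out 1 library, those without IMA 1, 2 or 4 or without IMPA 2, 3, 4 or 5, with exact permutation p between 0.0556 and 0.0714.

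The analysed receptors summed to 30.5 ± 0.767 FPKM (SD, n = 5) in IMPA, 21.4 ± 1.68 in IMA, 19.3 ± 1.03 in SPA and 13.0 ± 0.369 in SA. FGFR1 made up 56.25% ± 4.85 of that sum in IMPA, 72.4% ± 2.35 in IMA, 81.3% ± 1.01 in SPA and 82.0% ± 0.908 in SA. FGFR4 made up 34.0% ± 3.68 in IMPA and 21.6% ± 2.15 in IMA, and less than FGFR2 in every subcutaneous library. Before differentiation FGFR4 differed most between the depots in FPKM, and after it FGFR1 and FGFR4 differed by similar amounts, with means of 15.5 and 4.61 FPKM in IMA against 10.6 and 0.00809 in SA. FGFR3 is not in these sums.

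**Figure D2:**
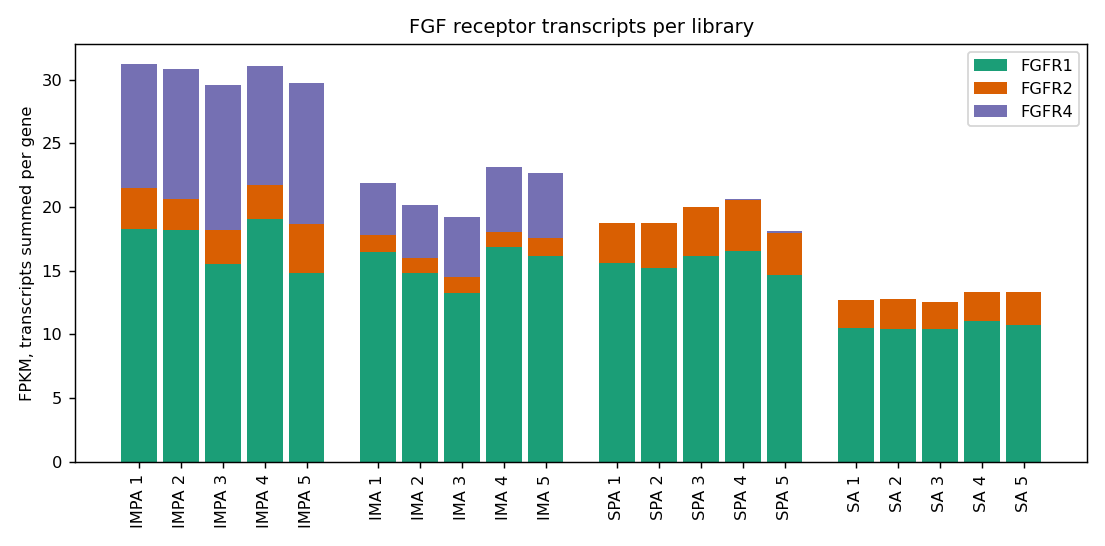
FPKM of FGFR1, FGFR2 and FGFR4 stacked for each of the 20 libraries, on a linear axis from 0. The sum is highest in IMPA and lowest in SA, and the FGFR4 part is visible in IMPA and IMA but reaches at most 0.0863 FPKM in SPA and 0.0218 in SA.

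FGFR1 was the most abundant receptor in every group. Its values were 18.3, 18.2, 15.5, 19.1 and 14.8 FPKM in IMPA and 16.5, 14.8, 13.2, 16.9 and 16.2 in IMA. In the subcutaneous cells they were 15.6, 15.2, 16.2, 16.5 and 14.7 (SPA) and 10.5, 10.4, 10.4, 11.1 and 10.8 (SA). IMPA, IMA and SPA overlapped, and all SA libraries lay below them. The SA minus SPA difference was -0.52 ± 0.04 (limma adjusted p = 4.7e-07), and IMA minus IMPA was -0.14 with a 95% interval from -0.31 to 0.04 (limma adjusted p = 0.16). With the covariate the latter was -0.74, which was not called (limma adjusted p = 0.067). Of its 13 transcript rows, 4 were at 0 in all libraries, and a single one held 71.0% of the FGFR1 FPKM in IMPA, 62.5% in IMA, 62.1% in SPA and 62.8% in SA.

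FGFR2, whose splice forms set whether it answers FGF7 and FGF10 or FGF2, fell with differentiation in both cell types. It was at 3.16, 2.48, 2.69, 2.64 and 3.81 FPKM in IMPA and 1.37, 1.20, 1.28, 1.17 and 1.43 in IMA. The subcutaneous values were 3.19, 3.50, 3.82, 4.02 and 3.31 FPKM in SPA and 2.23, 2.34, 2.17, 2.29 and 2.58 in SA. In each depot all adipocyte libraries lay below all preadipocyte libraries, and IMPA overlapped both subcutaneous groups. The log2 difference was -0.78 ± 0.08 for IMA minus IMPA (limma adjusted p = 9.8e-06) and -0.46 ± 0.06 for SA minus SPA (limma adjusted p = 4.4e-05). For the intramuscular cells the fit with the mapped share as a covariate gave -0.26 and no call (limma adjusted p = 0.59). The 13 transcript rows of FGFR2 shared its FPKM unevenly between libraries: a row at 0 in the other 19 libraries held 46.2% of the FGFR2 FPKM in SA 4. The summed value of SA 4, 2.29 FPKM, lay inside the range of its group. Which rows encode which splice form was not analysed here.

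FGFR4 was at 9.78, 10.2, 11.4, 9.38 and 11.1 FPKM in IMPA and at 4.08, 4.13, 4.66, 5.09 and 5.12 in IMA. It was listed at 0 in SPA 1 and in SA 1, 4 and 5, and reached at most 0.0863 FPKM in SPA and 0.0218 in SA. The intramuscular and subcutaneous libraries therefore did not come near each other, and all IMA libraries lay below all IMPA libraries. The fall with differentiation in the intramuscular cells was -1.02 ± 0.07 (limma adjusted p = 3.2e-07), from a mean of 10.4 ± 0.862 to 4.61 ± 0.50 FPKM. It was -0.67 in the fit with the mapped share, and no longer called (limma adjusted p = 0.12). SA minus SPA was -0.04 (limma adjusted p = 0.32), with both groups close to 0.

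**Figure D3:**
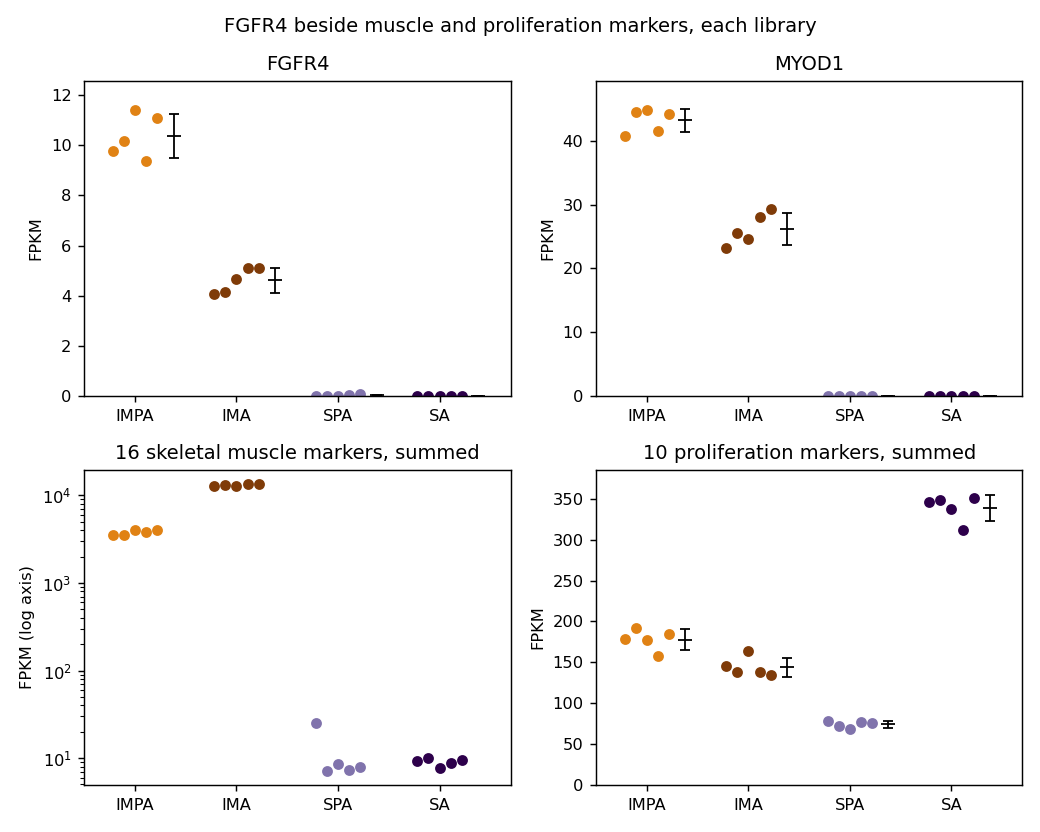
FPKM per library of FGFR4, of MYOD1, of the 16 skeletal muscle markers with rows (summed, log axis) and of the 10 proliferation markers (summed). Points are libraries and black marks are the mean with the SD in the 3 linear panels. FGFR4 and MYOD1 are both lower in IMA than in IMPA and at or near 0 in SPA and SA, while the summed muscle markers are higher in IMA than in IMPA.

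The libraries with FGFR4 were also those with skeletal muscle markers. MYOD1, the transcription factor that commits cells to muscle, was at 43.2 ± 1.84 FPKM (SD, n = 5) in IMPA and 26.1 ± 2.51 in IMA, was listed at 0 in all SPA libraries and was above 0 in a single SA library. It fell by 0.71 ± 0.06 on the log2 scale from IMPA to IMA (limma adjusted p = 1.7e-06). Of the 16 tested muscle markers, 14 rose and MYOD1 alone fell in that comparison, beside 19.9% and 40.2% of all tested genes, with a median of 1.73. With the mapped share as a covariate 12 of the 16 were called there, all higher, so the fall of MYOD1 was not called. All 16 were higher in IMPA than in SPA and in IMA than in SA, beside 42.3% and 29.0% of all tested genes. The markers reached the filter mainly through the intramuscular groups, so a depot difference was built into these counts. TNNT3, fast troponin T, rose by 2.95 ± 0.05 (limma adjusted p = 3.6e-12). The part of muscle cells in the FGFR4 values was not tested.

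Taken over the members, the stage comparison in the intramuscular cells called 3 of the 8 tested (FGF18, FGFR2 and FGFR4), all lower, where 60.1% of all tested genes were called and 40.2% were called lower. The same 3 were those whose groups did not overlap, against 43.5% of all tested genes. The members' median log2 difference was -0.095, against -0.085 for all tested genes. None of the 8 was called with the mapped share as a covariate. The SA against SPA comparison called 6 of 8 (1 higher and 5 lower), where 52.1% of all tested genes were called, 26.1% higher and 26.0% lower. All 6 had groups that did not overlap, against 38.8% of all tested genes. The members' median was -0.49, against -0.01 for all tested genes. The same 6 were called with the covariate: FGF2 at 1.09, FGF7 at -0.46, FGF11 at -1.14, FGF18 at -0.74, FGFR1 at -0.52 and FGFR2 at -0.47. Their limma adjusted p were 6e-05, 0.0073, 0.00012, 0.013, 0.00098 and 0.018.

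**Figure D4:**
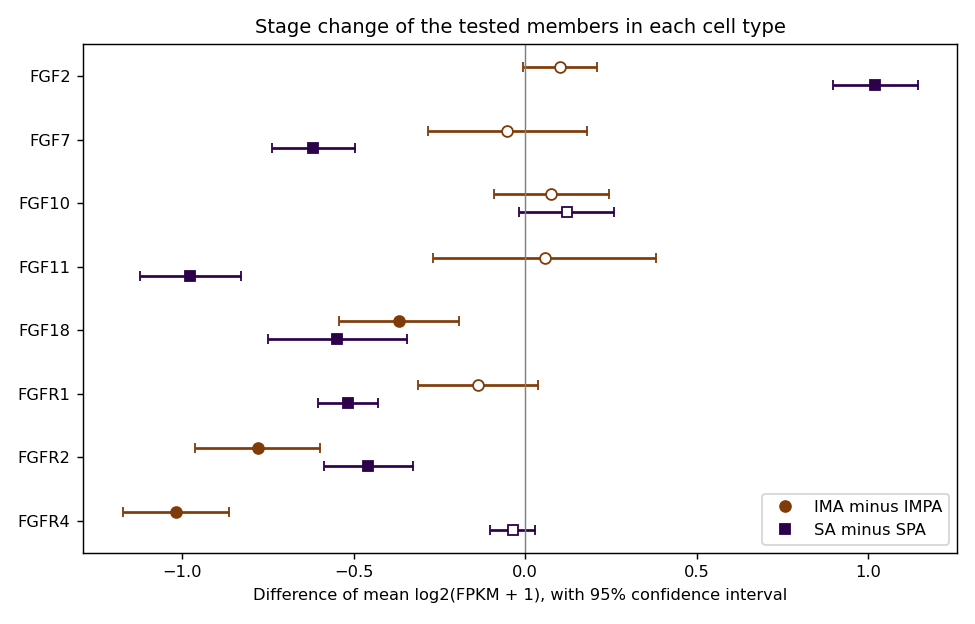
Difference between adipocytes and preadipocytes in mean log2(FPKM + 1) for the 8 tested genes, circles for the intramuscular and squares for the subcutaneous cells. Bars are 95% confidence intervals, and filled symbols have a limma adjusted p under 0.05. FGF2 is the gene to the right of 0 in the subcutaneous cells with a filled symbol, and FGFR4 has the lowest intramuscular value.

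Whether the stage changes differed between the cell types was tested as an interaction, (IMA minus IMPA) minus (SA minus SPA), over all 20 libraries. It called 6 of the 8 members (3 higher and 3 lower), where 55.3% of all tested genes were called, 20.7% higher and 34.6% lower. FGF2 differed by -0.92 ± 0.08 (limma adjusted p = 1.7e-09), since its rise was seen in the subcutaneous cells. FGF11 differed by 1.03 ± 0.17 (limma adjusted p = 3.3e-05), FGF7 by 0.57 ± 0.13 (limma adjusted p = 0.00073) and FGFR1 by 0.38 ± 0.09 (limma adjusted p = 0.0015), the 3 genes whose fall was called in the subcutaneous cells and not in the intramuscular ones. FGFR2 differed by -0.32 ± 0.10 (limma adjusted p = 0.013) and FGFR4 by -0.98 ± 0.08 (limma adjusted p = 3.1e-09). FGFR4 was close to 0 in SPA and SA, where a fall could not show on this scale. Its interaction value without a covariate therefore only repeats the intramuscular fall, although it counts among the 6. The interaction fit with the mapped share estimated that covariate over all 20 libraries. Its FGFR4 value was -0.74, against -0.67 and no call in the fit of the intramuscular libraries alone (limma adjusted p = 0.12). A subcutaneous fall could not show there either. FGF10 (-0.04) and FGF18 (0.18) were not called, with limma adjusted p of 0.73 and 0.24. With the mapped share as a covariate, 2 of the 8 were called, FGF2 at -0.99 (limma adjusted p = 0.00015) and FGFR4 at -0.74 (limma adjusted p = 0.0042). FGF11 was then at 0.82 (limma adjusted p = 0.14), FGF7 at -0.03 (limma adjusted p = 0.95), FGFR1 at -0.08 (limma adjusted p = 0.78), FGFR2 at 0.07 (limma adjusted p = 0.88), FGF10 at -0.52 (limma adjusted p = 0.056) and FGF18 at 0.09 (limma adjusted p = 0.87).

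Between the depots, before differentiation, 7 of 8 members were called in IMPA against SPA (2 higher and 5 lower), where 75.1% of all tested genes were called, 42.3% higher and 32.9% lower. FGF11 was higher in IMPA by 1.49 ± 0.11 (limma adjusted p = 1.1e-07). FGF18 and FGFR4 count here among the 7 although they passed the filter only through their higher depot. FGF18 was lower, with means of 0.944 FPKM in IMPA and 6.55 in SPA, a difference of -1.96 ± 0.09. FGF7 was lower in IMPA (-1.26 ± 0.10, limma adjusted p = 1.5e-07), as were FGF2 (-0.59 ± 0.06, limma adjusted p = 6.9e-07) and FGF10 (-0.49 ± 0.07, limma adjusted p = 3.1e-05). FGFR2 was lower by 0.21 ± 0.09 with overlapping groups (limma adjusted p = 0.041), a call lost without IMPA 2, 3 or 4 or without SPA 2, 3 or 4, with limma adjusted p from 0.062 to 0.10. FGFR1 was not called (0.12, limma adjusted p = 0.11) but was called without IMPA 5 (0.17, limma adjusted p = 0.020). With the mapped share as a covariate, the 2 members called were FGF18 (-1.67, limma adjusted p = 0.013) and FGFR4 (3.16, limma adjusted p = 4.6e-06), the genes that passed the filter only through the depot where they are high. FGF2 was then at -0.35, FGF7 at -0.38, FGF10 at 0.05, FGF11 at 1.39, FGFR1 at 0.69 and FGFR2 at -0.95, with limma adjusted p of 0.35, 0.52, 0.93, 0.087, 0.076 and 0.067. Groups did not overlap for 6 members, FGF18 and FGFR4 among them, against 63.4% of all tested genes. The members' median was -0.35, against 0.05.

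After differentiation all 8 tested members were called in IMA against SA (3 higher and 5 lower), where 72.4% of all tested genes were called, 29.0% higher and 43.4% lower. None of the 8 overlapped between these groups, against 58.6% of all tested genes, and all 8 were also called with the covariate. FGF18 and FGFR4 count here among the 8 although they passed the filter only through their higher depot. FGF11 was higher in IMA by 2.52 ± 0.11 (limma adjusted p = 5.7e-11), an 8.09-fold ratio of means, and FGFR1 by 0.50 ± 0.06 (limma adjusted p = 3.9e-06). FGF2 was lower in IMA by 1.51 ± 0.05 (limma adjusted p = 3.2e-12) and FGF18 by 1.78 ± 0.08. FGF7 was lower by 0.69 ± 0.06, FGF10 by 0.53 ± 0.07 and FGFR2 by 0.54 ± 0.06, with limma adjusted p of 2.5e-07, 1.1e-05 and 1.5e-06. The members' median was -0.54, against -0.09 for all tested genes. The depot and stage comparisons share libraries. The 10 stromal markers summed to between 11454 and 11855 FPKM in SPA and 10442 and 10751 in SA, and to between 4498 and 7044 in the intramuscular groups, and their part in the depot differences was not tested.

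FGF receptors need partners at the cell surface, and a list of 13 co-receptors and binding proteins had 7 tested genes. In IMA against IMPA, 1 of the 7 rose and 5 fell, where 19.9% of all tested genes rose and 40.2% fell. In SA against SPA, 3 rose and 2 fell, where 26.1% of all tested genes rose and 26.0% fell. The list's median log2 differences were -0.39 and 0.11, against -0.09 and -0.01 for all tested genes. FLRT3, a membrane protein that binds FGF receptors, fell by 0.91 ± 0.06 in the intramuscular cells (limma adjusted p = 1.7e-07) and rose by 1.07 ± 0.06 in the subcutaneous cells (limma adjusted p = 3.8e-08), an interaction of -1.98 ± 0.09 (limma adjusted p = 1.1e-13). NCAM1, a cell adhesion molecule that can bind FGFR1, was at 47.4 FPKM in IMPA and 51.9 in IMA and below 0.06 in each subcutaneous library. FGFRL1, a receptor-like protein without a kinase, rose in both (0.38 and 0.24, limma adjusted p = 0.00015 and 0.0043), and both calls were lost when each gene was represented by its most abundant transcript. The klotho proteins, partners of the hormone-like FGFs, were too low to be tested. KL had group means of at most 0.0151 FPKM and KLB of at most 0.280. With the mapped share as a covariate, 2 of the 7 genes were called in IMA against IMPA, both lower. In SA against SPA 4 were called, 2 higher and 2 lower.

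Heparan sulfate carriers and enzymes, which hold FGFs at the receptor, had 19 tested genes of 23. In the intramuscular cells 6 rose and 10 fell (19.9% and 40.2% of all tested genes), and in the subcutaneous cells 5 rose and 9 fell (26.1% and 26.0%). The medians were -0.19 and -0.16, against -0.09 and -0.01 for all tested genes. GPC3, a glypican, rose by 1.43 ± 0.09 from IMPA to IMA (limma adjusted p = 1.1e-07). SULF1, an enzyme that removes sulfate from heparan sulfate and lowers FGF signalling, fell by 1.25 ± 0.04 from SPA to SA (limma adjusted p = 2e-10). HS6ST1, which adds sulfate, fell there by 0.84 ± 0.06 (limma adjusted p = 2.4e-07). Of the 30 genes that relay the receptor signal, 6 rose and 7 fell in the intramuscular cells and 4 rose and 11 fell in the subcutaneous cells, beside the same shares and medians of all tested genes, and their own medians were -0.06 and -0.09. MAP2K1, the kinase MEK1 directly above ERK, rose by 0.22 ± 0.04 in IMA (limma adjusted p = 0.00024) and fell by 0.47 ± 0.03 in SA (limma adjusted p = 3.3e-07). In the fits with the mapped share, 3 heparan sulfate genes, all lower, and none of the relay genes were called in IMA against IMPA. In SA against SPA 7 heparan sulfate genes (3 higher and 4 lower) and 10 relay genes (2 higher and 8 lower) were called.

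The 21 genes known to respond to FGF and ERK signalling were all tested. In IMA against IMPA 9 rose and 5 fell, beside 19.9% and 40.2% of all tested genes, with a median log2 difference of 0.14 against -0.09 for all tested genes. In SA against SPA 4 rose and 12 fell, beside 26.1% and 26.0% of all tested genes, with a median of -0.25 against -0.01. The interaction called 10 of the 21, all with a higher value for the intramuscular cells, where 55.3% of all tested genes were called and 20.7% were called in that direction. In the fit with the mapped share, 2 of the 21 were called in IMA against IMPA, both lower, and 1 in the interaction. None of the 9 intramuscular rises was called as a rise in that fit. In SA against SPA it called 14, with 3 higher and 11 lower.

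**Figure D5:**
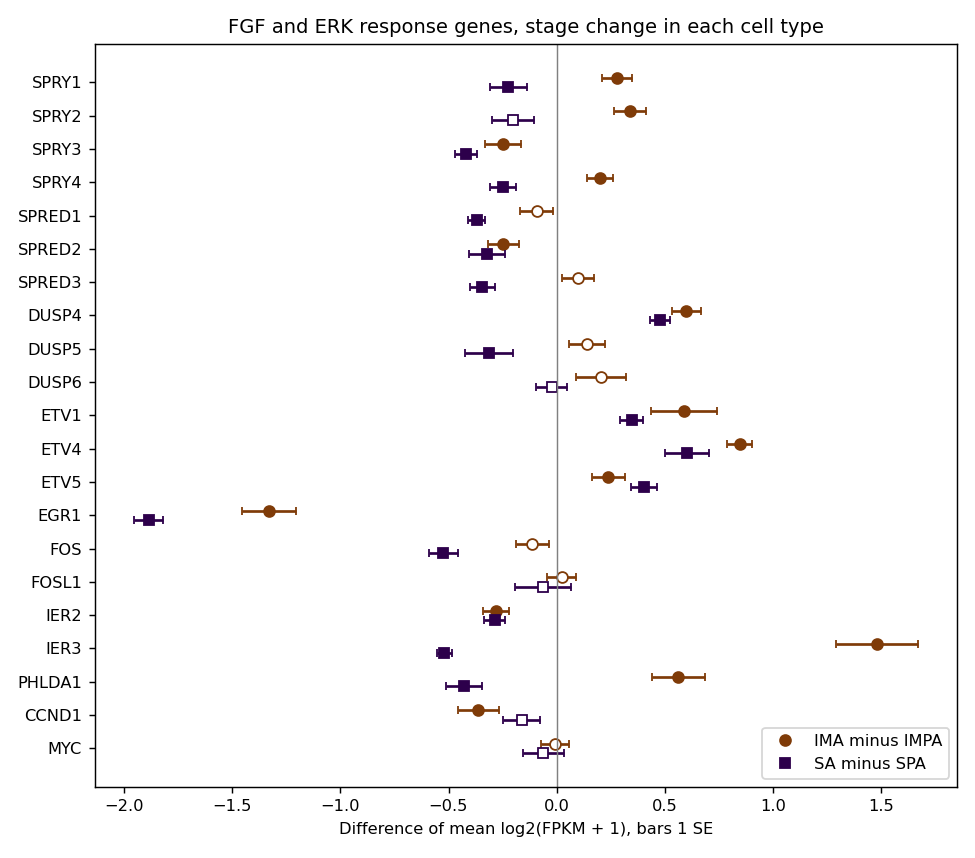
Difference between adipocytes and preadipocytes in mean log2(FPKM + 1) for the 21 FGF and ERK response genes, circles for the intramuscular and squares for the subcutaneous cells. Bars are 1 SE, and filled symbols have a limma adjusted p under 0.05. The ETV factors and DUSP4 lie to the right of 0 in both cell types, EGR1 lies furthest to the left, and IER3 and PHLDA1 lie on opposite sides.

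The response genes did not move as a block. ETV4, an ETS factor switched on by FGF signalling, rose by 0.84 ± 0.06 in the intramuscular cells (limma adjusted p = 2.1e-07) and by 0.60 ± 0.10 in the subcutaneous cells (limma adjusted p = 0.00038). ETV1 and ETV5 and the ERK phosphatase DUSP4 rose in both as well. With the mapped share as a covariate, none of these intramuscular rises, that of ETV4 included, was called as a rise. EGR1, an immediate early gene, fell in both, by 1.33 ± 0.12 (limma adjusted p = 3.6e-06) and by 1.89 ± 0.07 (limma adjusted p = 4.3e-10). The feedback inhibitors SPRY1 and SPRY4 rose in the intramuscular cells (0.28 and 0.20) and fell in the subcutaneous cells (-0.22 and -0.25), with limma adjusted p of 0.0046, 0.013, 0.045 and 0.0041. The subcutaneous SPRY1 call was lost when any 1 of 7 libraries was left out, SPA 1, 2, 3 or 5 or SA 1, 2 or 4. IER3 rose by 1.48 ± 0.19 in the intramuscular cells (limma adjusted p = 4.2e-05) and fell by 0.52 ± 0.03 in the subcutaneous cells (limma adjusted p = 8.6e-08). With the mapped share as a covariate the intramuscular IER3 value was -0.01 (limma adjusted p = 0.99), that of SPRY4 was -0.05 (limma adjusted p = 0.91), and that of PHLDA1, 0.56 without it, was -0.71 (limma adjusted p = 0.044).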

How the data were processed

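The study sequenced 20 libraries of goat cells, 5 in each of 4 groups, made by a strand-specific dUTP protocol. Per the study's methods and processing notes, the authors aligned the reads to the goat assembly ARS1 with HISAT2 2.0.4, assembled transcripts with Scripture and Cufflinks, and deposited FPKM per transcript, for which StringTie 1.3.1, Ballgown and Cuffdiff are named. The deposited mRNA table was used, and the lncRNA tables were left out. Here the FPKM of the 43766 transcripts were summed to 20587 symbols, of which 6 joined several gene identifiers. Genes averaging 1 FPKM or more in the 20 libraries were tested on log2(FPKM + 1) with limma 3.58.1 (R 4.3.3), with a variance trend and no covariates. Each pairwise fit used the 10 libraries of its groups, and the interaction used all 20. P-values were two-sided. The calculation was tested on simulated data. FGF1 was tested by exact permutation (Python 3.11.15). No pair of libraries was identical.

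The members and gene lists were chosen with earlier results of these data known. Genes outside the members were named by a rule: response genes called in a stage comparison, and per list and comparison the 2 genes of smallest p in each direction. ADIPOQ, PLIN1, KL, KLB and the ligands listed under the other observations were named after their values were seen. Alternatives were the filter, the pseudocount, the scaling, the transcript choice, the variance trend, a replicate block, the mapped share as a covariate, a joint fit of all 4 groups, and libraries left out. The mapped share came from the study's alignment statistics. The depth in fragments is unknown.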

Additional observations from a re-analysis of the deposited data

Results flagged for a closer look

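In 6 of the 8 tested members the stage change differed between the intramuscular and the subcutaneous cells by the limma interaction test. The differences, as intramuscular minus subcutaneous change on the log2 scale, were 1.03 for FGF11, -0.92 for FGF2, 0.57 for FGF7, 0.38 for FGFR1, -0.32 for FGFR2 and -0.98 for FGFR4. In FGFR4 the subcutaneous libraries were at or near 0 at both stages, so a fall there could not show and its value repeats the intramuscular fall.

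The FGF10 value of SA 1, 6.99 FPKM, stood apart from the other 4 SA libraries: its gap to the nearest of them was 0.714 of the range of the group, above the critical value of 0.71 for 5 samples. It was 1 of 36 groups looked at, and chance gives such a gap in about 1 of 20.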

How the results depend on the processing

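The mapped share as a covariate moved the number of members called from 3 to 0 in IMA against IMPA, from 7 to 2 in IMPA against SPA and from 6 to 2 in the interaction. No other setting moved a count of members by over 1.5 times. Over all genes the fit with this covariate called 776 against 6867 without it in IMA against IMPA, 3809 against 5957 in SA against SPA, 2418 against 8588 in IMPA against SPA and 2122 against 6319 in the interaction. It turned the sign of FGF2 (-0.036), FGF10 (-0.52), FGF11 (-0.14), CD14 (-0.77), IER3 (-0.013), PHLDA1 (-0.71), SCD (0.16) and SPRY4 (-0.051) in IMA against IMPA, of FGF10 (0.048), CD14 (0.68) and SCD (-0.13) in IMPA against SPA, and of FGF7 (-0.032), FGFR1 (-0.085), FGFR2 (0.065), CD14 (-0.36) and PDGFRA (-0.087) in the interaction. The cause was not tested. In the interaction, the sign also turned for FGF10 with upper-quartile scaling (0.0036), FGF18 with a pseudocount of 0.1 (-0.14) and STAT3 with the most abundant transcript (-0.45). With that transcript the FGFR1 interaction lost its call (0.18, limma adjusted p = 0.40). Scaling to the mRNA sum changed the split of calls in SA against SPA from 2982 higher and 2975 lower to 2327 and 4052.

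Leaving out 1 library at a time gave 3 to 4 members called in IMA against IMPA, 6 to 6 in SA against SPA, 6 to 8 in IMPA against SPA, 8 to 8 in IMA against SA and 6 to 6 in the interaction. The FGF1 differences ranged from 0.0674 to 0.114 FPKM (IMA against IMPA), 0.0294 to 0.0405 (SA against SPA), 0.102 to 0.139 (IMPA against SPA) and 0.156 to 0.201 (IMA against SA). FGF11 in IMA against IMPA turned to -0.055 without IMPA 1 and -0.056 without IMA 4 and otherwise reached up to 0.13, and FGF10 in the interaction ranged from -0.10 to 0.0097, the last without SA 1. FGF2 in IMA against IMPA was called without IMA 2 (0.13, limma adjusted p = 0.038) and with upper-quartile scaling (0.14, limma adjusted p = 0.033).

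Libraries with the same replicate number deviated together only weakly (r from 0.0417 to 0.121 between IMA and IMPA and from -0.242 to 0.122 between SA and SPA), and 3 and 1 of 5 correlated best with their own number. With the replicate block, 3, 6, 6, 8 and 6 members were called in the 5 comparisons. FGFR2 in IMPA against SPA lost its call (limma adjusted p = 0.076, and 0.088 with no filter), and no other member's call changed under the block. The fragments behind each value are unknown, so values near 0 cannot be told from values below detection.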

Other observations

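The other 16 FGF ligand genes on a list of the family were all too low to be tested. FGF13, an intracellular FGF like FGF11, had a mean of 0.450 ± 0.130 FPKM (SD, n = 5) in IMPA and 2.93 ± 0.531 in IMA, and at most 0.0968 FPKM in a subcutaneous library. FGF5 was at 0.905 ± 0.264 in IMPA and 0.798 ± 0.177 in IMA and was listed at 0 in all 10 subcutaneous libraries. FGF9 was at 0.195 ± 0.0513 in IMPA and 0.569 ± 0.129 in IMA. FGF22 was at 1.25 ± 0.311 in IMPA, 0.793 ± 0.253 in IMA, 0.261 ± 0.144 in SPA and 0.108 ± 0.079 in SA. These genes were picked after their values were seen.

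For the 5 members whose group means ranged over at least 1 on the log2 scale, the tested genes with the most similar pattern were found by the root mean square difference of log2(FPKM + 1), each gene centred on its own mean, over 20 libraries. They were AKAP5 (0.165) and LPAR6 (0.184) for FGF2, NFIL3 (0.104) and GINM1 (0.116) for FGF7, JUN (0.238) and MASP1 (0.261) for FGF11, ID2 (0.133) and GFPT2 (0.157) for FGF18, and SNCAIP (0.141) and C1H3orf58 (0.152) for FGFR4. SNCAIP was at 8.28 FPKM in IMPA, 4.62 in IMA and below 0.05 in SPA and SA on average.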
